A study of Homo sapiens with 6 samples.

Results

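The 32 genes described here are reported targets of the transcriptional co-activators YAP and TAZ, taken by name from published target lists; CCN1, CCN2, ANKRD1, AMOTL2 and LATS2 were left out of the set and serve as a comparison. Each symbol matched exactly 1 of the 60676 gene IDs in the count tables. Of the 32 genes, 17 belong to a 22-gene YAP/TAZ target signature that is widely used in tumour work, whose remaining 5 genes are the 5 left out, and 15 come from other reports. Transcripts were counted by RNA sequencing in HEK293A, an adherent derivative of a human embryonic kidney line. One group was given 20 nM VT01454 for 2 h (n = 3 libraries) (the code name is the only identity the labels give), and the other the vehicle DMSO for 2 h (n = 3 libraries). The labels name no genetic change in either group. Whether libraries of one group stem from different cultures is not stated, and the p-values below may therefore reflect technical spread alone.

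YAP and TAZ do not bind DNA themselves. They are held in the cytoplasm when the Hippo kinases phosphorylate them, and when released they enter the nucleus, bind TEAD factors and raise transcription of genes for growth factors, matrix proteins, cytoskeletal regulators and Hippo feedback components. TEAD sites often lie in distal enhancers and near AP-1 sites, and which targets a cell uses differs between cell types. The comparison of compound with vehicle asks which of these reported targets respond within 2 h.

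After 2 h with the compound, 1 of the 32 genes changed, and it rose. TUFT1, which encodes tuftelin, an acidic protein first described in tooth enamel and made in many tissues, was 1.77-fold higher than with vehicle. No other gene passed: 29 tested genes missed an adjusted p of 0.05 in edgeR's quasi-likelihood test, with Benjamini-Hochberg adjustment over all 15577 tested genes, and FGF1 and CAVIN2 were too low to test. Among all tested genes 1.89% passed, 1.27% as higher and 0.616% as lower, so 1 rise and 0 falls among 30 tested genes stood near that background. By unadjusted p below 0.05 there were 8 of the 30, with 5 higher and 3 lower, against 14.4% of all tested genes (7.82% higher and 6.55% lower). DESeq2 called TUFT1 alone as well.

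The promoters of 4 genes are shown to set the gene that rose beside a target that fell and reported targets that did not pass. Each run is the 250 bases before the RefSeq transcript start on GRCh38.p14, read 5′ to 3′ on the gene's strand, and capitals mark GGAATG on either strand (CATTCC where it lies on the other strand), the core of the TEAD motif. TUFT1 (chr1:151540059-151540308, plus strand) is the gene that rose, CCN2 (chr6:131951373-131951622, minus strand) is the left-out classical target with well-known TEAD sites, and NUAK2 (chr1:205321746-205321995, minus strand) and THBS1 (chr15:39580829-39581078, plus strand) carry the motif near their starts.
TUFT1: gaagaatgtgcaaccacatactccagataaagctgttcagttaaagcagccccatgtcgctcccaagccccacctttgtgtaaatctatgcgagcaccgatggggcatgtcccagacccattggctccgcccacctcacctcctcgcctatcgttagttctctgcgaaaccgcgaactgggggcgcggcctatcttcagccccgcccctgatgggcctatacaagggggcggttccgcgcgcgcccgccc
CCN2: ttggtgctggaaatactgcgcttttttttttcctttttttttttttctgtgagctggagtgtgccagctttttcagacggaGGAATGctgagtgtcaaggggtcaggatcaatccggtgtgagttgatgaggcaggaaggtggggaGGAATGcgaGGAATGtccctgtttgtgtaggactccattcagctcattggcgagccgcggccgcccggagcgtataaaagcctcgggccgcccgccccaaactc
NUAK2: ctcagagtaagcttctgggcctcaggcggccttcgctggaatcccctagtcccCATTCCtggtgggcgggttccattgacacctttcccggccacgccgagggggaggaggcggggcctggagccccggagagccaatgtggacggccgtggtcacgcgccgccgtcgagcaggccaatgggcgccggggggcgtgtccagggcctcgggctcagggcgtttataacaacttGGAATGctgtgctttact
THBS1: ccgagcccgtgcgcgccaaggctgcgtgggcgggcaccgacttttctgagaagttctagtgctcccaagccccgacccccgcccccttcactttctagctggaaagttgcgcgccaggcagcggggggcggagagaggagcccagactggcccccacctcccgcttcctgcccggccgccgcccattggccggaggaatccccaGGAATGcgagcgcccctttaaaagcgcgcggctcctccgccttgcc
The CCN2 window held 3 copies, the first bases of which lay 169, 104 and 95 bases before the start. NUAK2 held 2, at 197 and 18 bases before the start, THBS1 held 1, at 46 bases, and TUFT1 held 0. Promoters in the RefSeq table were available for 25 of the 32 genes (none for CRIM1, CAVIN1, ASAP1, DOCK5, ARHGEF17, DLC1 or GADD45A), and 6 of them held GGAATG within 250 bases, namely TGFB2, THBS1, CAVIN2, NUAK2, PTPN14 and FOXF2. That is 24.0%, where 9.26% of the promoters of 11223 tested genes held it. None of these 6 genes passed in the main fit with all 6 libraries, in which CAVIN2 was too low to test. Without vehicle library 3, TGFB2 and THBS1 passed as higher (edgeR adjusted p = 0.0338 and 7.68e-04). THBS1 also passed with the replicate number as a block. Of the 4 classical targets with a promoter entry 2 held it (CCN2 and ANKRD1). The AP-1 motif TGANTCA was in 1 of the 25 (F3) and in 3.71% of all, and neither TGACGTCA, the cyclic AMP response element, nor the CArG box of serum response factor (SRF) was in any of the 25, against 2.90% and 0.98% of all. Both strands were searched for every motif, and a match was free to overlap another. Absence from this window says nothing of enhancers.

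The libraries differed within the groups as well as between them. Total counts were 28880374, 25066990 and 24646466 in compound libraries 1, 2 and 3, against 20962083, 19126039 and 26879796 in vehicle libraries 1, 2 and 3, so that a single count equalled 0.0346 to 0.0523 CPM, a unit in which every library has the same total. By chi-square per degree of freedom over all genes counted, the compound libraries differed from each other by 1.76 to 2.195, the vehicle libraries from each other by 5.14 to 12.2, and compound from vehicle libraries by 4.98 to 11.1, with vehicle library 2 the farthest from every other library. A small set of genes gave another split. Genes with a mean of at most 1 count in exactly 2 or 4 libraries and at least 10 counts in every other one split the 6 libraries into 3 pairs: compound 1 with vehicle 3, compound 2 with compound 3, and vehicle 1 with vehicle 2. This rests on 6 genes low in the first pair, 6 in the second, 3 in the third and 2 low in the first and second pairs at once, and by the chi-square compound library 1 was closer to compound libraries 2 and 3 (2.195 and 2.149) than to vehicle library 3 (5.51). Only the first of these pairs holds both treatments, so a fit with a term for the pairs compares 1 library with 1 and takes its spread from the pairs of a single treatment; its estimates are given as values, with no call. Without vehicle library 3, the number of all tested genes that passed was 1170 higher and 636 lower, against 198 and 96 with all 6 libraries. Of the line's markers, VIM, CDH2, SALL1 and the neurofilament gene NEFL averaged 12.5 CPM or more with vehicle, PAX2 averaged 0.518 CPM with vehicle and LHX1 0.0684 CPM. NEFM averaged 2.56 ± 2.10 CPM with compound and 3.68 ± 3.12 CPM with vehicle (SD, n = 3 each). Its counts were 4, 93 and 93 in compound libraries 1, 2 and 3, against 87, 126 and 10 in vehicle libraries 1, 2 and 3. NEFM was thus low in compound library 1 and vehicle library 3, the first of the pairs above. The leukocyte markers PTPRC and CD3E were at 0 counts in every library. Fibroblast markers summed to 22.6 to 33.0 CPM with compound and 24.6 to 37.5 CPM with vehicle, endothelial markers to 1.55 to 2.13 CPM with compound and 1.93 to 2.60 CPM with vehicle, and no tested member of these lists passed. The summed level of 3 squamous markers was at most 0.491 CPM with compound and 0.157 CPM with vehicle.

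Levels with vehicle, on a scale of CPM per kilobase of exon, spanned a wide range among the 32 genes. The caveolar coat gene CAVIN1 averaged 46.5 ± 1.89 with compound and 49.99 ± 1.69 with vehicle (SD, n = 3 each), and SLIT2, which encodes a guidance ligand for ROBO receptors, averaged 56.8 ± 0.558 with compound and 49.98 ± 5.47 with vehicle. Both thus led the vehicle order and did not differ beyond their spread, and FJX1 (37.8 ± 6.65) and CAV1 (30.3 ± 1.72), whose vehicle levels follow, did not separate from each other either. The median of the tested genes was 3.98 CPM per kilobase with vehicle. At the low end of the tested genes were EDN1 at 0.224 ± 0.0984, NT5E at 0.307 ± 0.0848 and RBMS3 at 0.342 ± 0.0537 with vehicle. The classical targets CCN1 and CCN2 stood above all 32 at 83.0 and 70.6, while LATS2 stood at 3.99, close to the median of the set. TUFT1 averaged 12.8 ± 0.400 with compound and 7.25 ± 0.570 with vehicle on this scale.

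TUFT1 (ENSG00000143367) lies on the plus strand of chromosome 1 at 151540305 to 151583583 in GENCODE 29, and its exons share no bases with another annotated gene. It had 1422, 1198 and 1253 counts in the compound libraries, against 645, 535 and 705 in the vehicle libraries. On the CPM scale these were 49.9, 48.1 and 51.2 with compound, against 30.4, 27.9 and 26.0 with vehicle. Every compound library lay above every vehicle library, and the gap between the groups was wider than the range within either. The log2 fold change was 0.82 ± 0.08 (SE, edgeR adjusted p = 5.61e-05). It passed without any single library, at 0.77 to 0.89 with adjusted p up to 0.00168. Within the pair formed by compound library 1 and vehicle library 3 the log2 ratio was 0.94. In bulk RNA, more of a transcript per cell and more cells carrying it cannot be told apart.

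**Figure D1:**
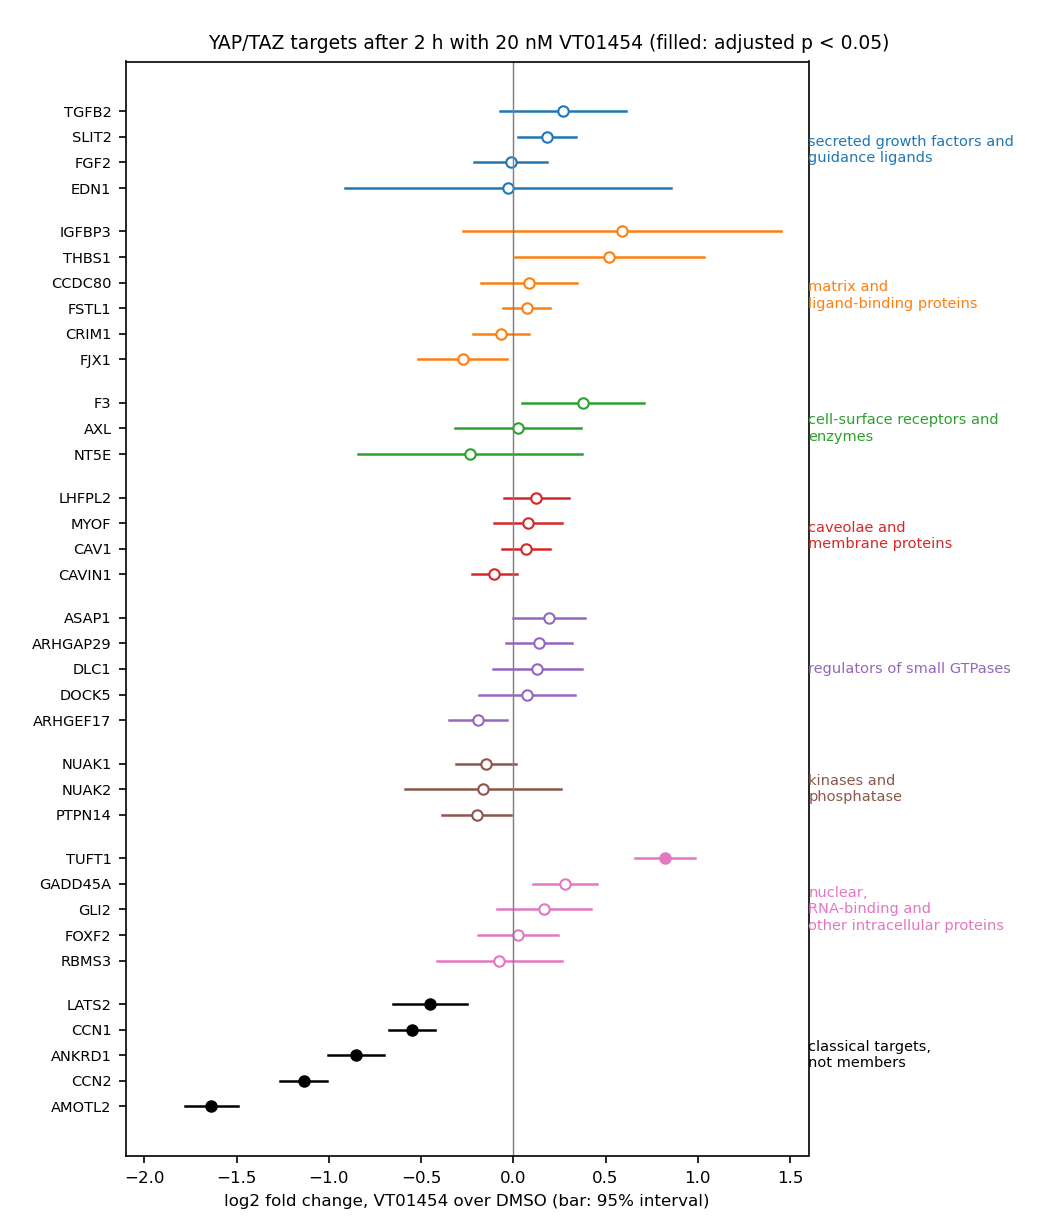
Log2 fold change (compound over vehicle, x axis) of the 30 tested genes by role, with the 5 classical targets at the bottom; points are estimates, bars 95% intervals and filled points passed at an adjusted p below 0.05. TUFT1 at 0.82 is the filled point among the 30, while the 5 classical targets lie between -1.64 and -0.45.

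The 5 classical targets that were left out gave a contrasting picture in the same libraries. Both sets were drawn up with earlier results of these data known, so the contrast is a description and not a test. All 5 fell, with log2 fold changes of -1.64 ± 0.07 for the angiomotin scaffold gene AMOTL2, -1.14 ± 0.06 for CCN2, -0.85 ± 0.07 for ANKRD1, -0.55 ± 0.06 for CCN1 and -0.45 ± 0.09 for the Hippo kinase gene LATS2 (SE, edgeR adjusted p up to 0.0255). LATS2 did not pass when compound library 1, 2 or 3 or vehicle library 1 was left out (adjusted p = 0.087 to 0.189). Within the pair of compound library 1 and vehicle library 3 the log2 ratios were -1.61 for AMOTL2, -1.10 for CCN2, -0.71 for ANKRD1, -0.50 for CCN1 and -0.55 for LATS2. Their median was -0.85, whereas that of the 30 tested genes was 0.074 and that of all tested genes -0.0073. The 17 genes of the 22-gene signature had a median of 0.027, and the 13 tested from other reports had 0.12.

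The 95% intervals of the 30 genes show how large a fall remained possible within the fit of all 6 libraries. That fit has no term for the library pairs. Some estimates with the pair term lay outside these intervals, such as -0.44 for PTPN14 (lower bound -0.38) and 0.43 for NT5E (upper bound 0.37). The bounds below therefore hold only if the libraries of a group are independent. For 27 of the 30 the interval lay wholly above a 1.5-fold fall, the exceptions being EDN1, NT5E and NUAK2, and for 24 it lay above a 1.3-fold fall, which the intervals of FJX1, PTPN14 and RBMS3 also reached. No interval reached the 2.2-fold fall of CCN2, and 4 reached the 1.37-fold fall of LATS2 (EDN1, FJX1, NT5E and NUAK2). The median half-width of these intervals was 0.21 on the log2 scale.

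**Figure D2:**
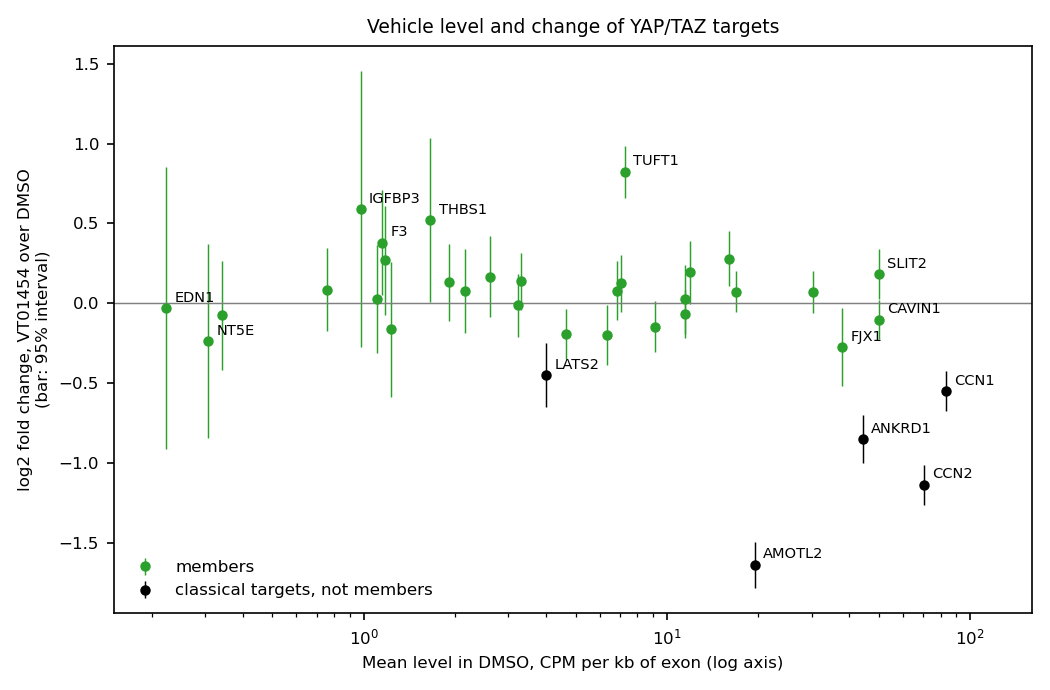
Mean vehicle level (CPM per kilobase of exon, log x axis) against log2 fold change with 95% interval (y axis) for the 30 tested genes in green and the 5 classical targets in black. FJX1, SLIT2 and CAVIN1, at vehicle levels around that of ANKRD1, lie between -0.28 and 0.18, and wide intervals belong to genes of low level and to IGFBP3 and THBS1.

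Among the secreted ligands, 4 of 5 were tested and none passed. SLIT2 had 553, 556 and 545 CPM with compound, against 518, 424 and 514 CPM with vehicle. The groups did not overlap, with vehicle library 2 the lowest and vehicle libraries 1 and 3 nearer the compound level. The log2 fold change of SLIT2 was 0.18 ± 0.07 (edgeR adjusted p = 0.267), and it was 0.096 without vehicle library 2. TGFB2, a TGF-beta family ligand, had 7.44, 7.79 and 6.91 CPM with compound, against 5.10, 5.38 and 7.75 CPM with vehicle. Vehicle library 3 lay inside the compound range and the other vehicle libraries below it (0.27 ± 0.16, edgeR adjusted p = 0.464). FGF2, a fibroblast growth factor, was at -0.014 ± 0.09, and EDN1, the gene of the vasoconstrictor endothelin-1, averaged 0.447 ± 0.0416 CPM with compound and 0.455 ± 0.200 CPM with vehicle. FGF1, another fibroblast growth factor, had 2, 4 and 1 counts in the compound libraries, against 7, 6 and 3 in the vehicle libraries.

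Of 6 genes for matrix and ligand-binding proteins none passed, and THBS1, IGFBP3 and FJX1 differed widely between vehicle libraries. THBS1, which encodes the matricellular protein thrombospondin-1, had 18.8, 22.7 and 24.6 CPM with compound, against 12.5, 12.2 and 20.9 CPM with vehicle. IGFBP3, which encodes a carrier of insulin-like growth factors, had 6.39, 7.31 and 6.91 CPM with compound, against 2.36, 3.65 and 7.38 CPM with vehicle. In both genes vehicle library 3 stood at the compound level and the other vehicle libraries well below it. The log2 fold changes were 0.52 ± 0.22 for THBS1 and 0.59 ± 0.36 for IGFBP3 (edgeR adjusted p = 0.341 and 0.512). Without vehicle library 3 both passed, at 0.84 ± 0.12 and 1.196 ± 0.19 (adjusted p = 7.68e-04 and 0.00163), whereas the log2 ratio of compound library 1 to its pair, vehicle library 3, was -0.15 for THBS1 and -0.21 for IGFBP3. THBS1 also passed with the replicate number as a block (0.56 ± 0.12, adjusted p = 0.0134).

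FJX1, the human homologue of the Drosophila Golgi kinase four-jointed, ran the other way in the same libraries. It had 73.6, 75.6 and 80.0 CPM with compound, against 99.9, 104 and 74.0 CPM with vehicle. Here too vehicle library 3 fell in the compound range while the other vehicle libraries lay above it. Its log2 fold change was -0.28 ± 0.11 (edgeR adjusted p = 0.288), -0.42 ± 0.06 without vehicle library 3 (adjusted p = 5.52e-04) and -0.0081 within the pair of compound library 1 and vehicle library 3. The other 3 of this role were close to 0: CCDC80, a matrix-associated protein gene, at 0.085 ± 0.12, FSTL1, a secreted follistatin-like protein gene, at 0.073 ± 0.06, and CRIM1, a membrane protein gene whose product binds BMPs, at -0.066 ± 0.07.

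**Figure D3:**
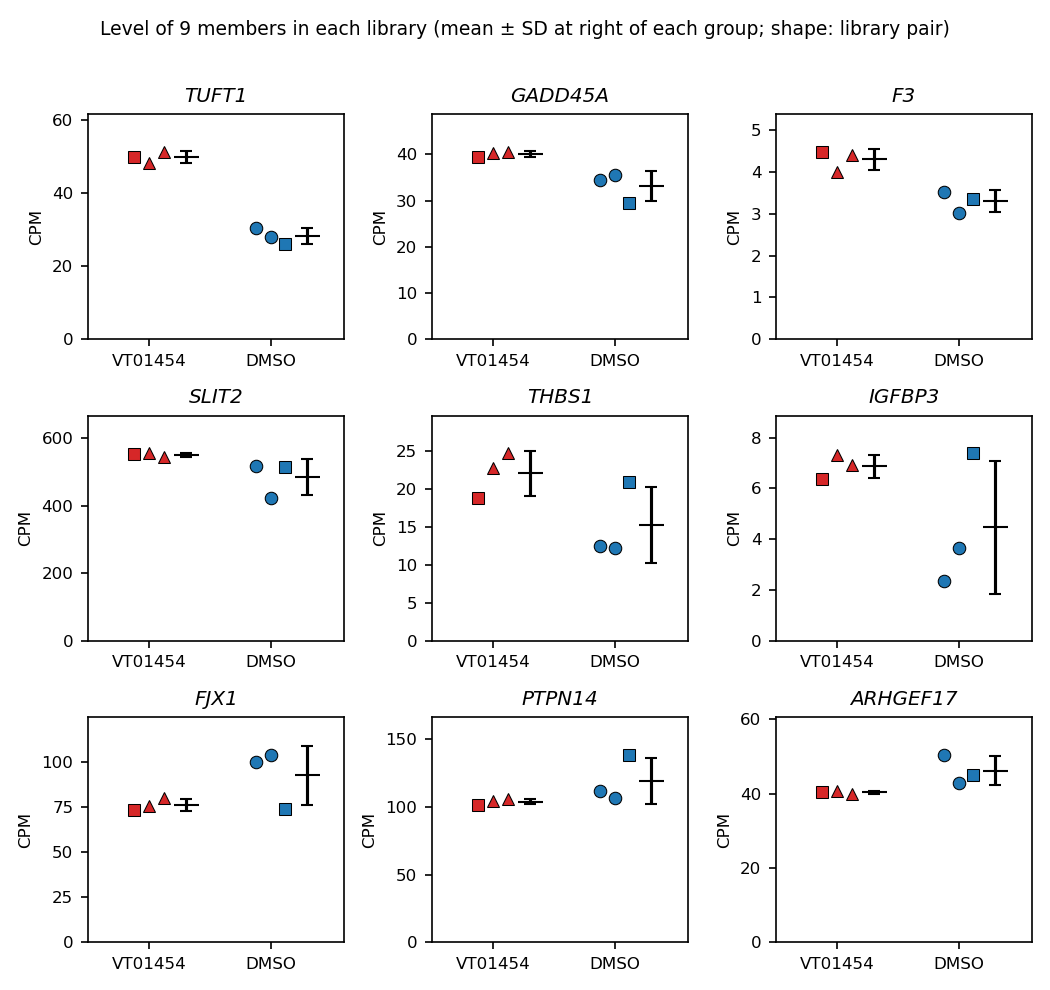
CPM (y axis, from 0) of 9 of the genes in each compound library (red) and vehicle library (blue), with mean ± SD at the right of each group (n = 3); squares are compound 1 and vehicle 3, triangles compound 2 and 3, circles vehicle 1 and 2. TUFT1 separates the groups, while for THBS1, IGFBP3 and FJX1 the square of vehicle library 3 lies at the compound level.

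None of the 3 genes for cell-surface receptors and enzymes passed. F3, which encodes tissue factor, the initiator of the extrinsic clotting cascade, had 4.49, 4.02 and 4.41 CPM with compound, against 3.54, 3.03 and 3.36 CPM with vehicle. The groups did not overlap and no vehicle library stood apart from the other two (0.38 ± 0.15, edgeR adjusted p = 0.282). The log2 fold change of F3 ranged over 0.32 to 0.43 across the fits that leave out 1 library and was 0.42 within the pair of compound library 1 and vehicle library 3. AXL, a receptor tyrosine kinase gene often used as a YAP readout, averaged 5.85 ± 0.606 CPM with compound and 5.71 ± 1.11 CPM with vehicle. NT5E, which encodes the ectoenzyme CD73 that makes adenosine, averaged 1.16 ± 0.193 CPM with compound and 1.39 ± 0.384 CPM with vehicle.

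Genes of caveolae and membrane proteins stood close to their vehicle levels, and none of the 4 tested passed. CAV1, the structural protein of caveolae, averaged 130 ± 2.67 CPM with compound and 124 ± 7.03 CPM with vehicle, and CAVIN1, which forms the caveolar coat, 178 ± 7.24 CPM with compound and 191 ± 6.47 CPM with vehicle. Their log2 fold changes were 0.070 ± 0.06 and -0.10 ± 0.06 (edgeR adjusted p = 0.629 and 0.438). MYOF, a ferlin gene of membrane repair and trafficking, stood at 0.078 ± 0.09, and LHFPL2, a tetraspan membrane protein gene, at 0.12 ± 0.08. CAVIN2, a second cavin, was near the limit of detection with 8, 7 and 4 counts in the compound libraries, against 0, 9 and 14 in the vehicle libraries.

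The 5 regulators of small GTPases differed little and none passed. ARHGEF17, a guanine nucleotide exchange factor gene, had 40.5, 40.7 and 40.0 CPM with compound, against 50.4, 42.9 and 45.1 CPM with vehicle. The groups did not overlap, with vehicle library 1 the farthest from the compound level (-0.19 ± 0.07, edgeR adjusted p = 0.257). The ARF GTPase-activating protein gene ASAP1 was at 0.19 ± 0.09, the GTPase-activating protein genes ARHGAP29 and DLC1 at 0.14 ± 0.08 and 0.13 ± 0.11, and DOCK5, an exchange factor for Rac, at 0.076 ± 0.12. ASAP1 and ARHGAP29 passed as higher without vehicle library 3 (0.28 and 0.24, adjusted p = 0.0421 and 0.0258).

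Genes for kinases and a phosphatase linked to Hippo or stress signalling all stood below 0 without passing. PTPN14, whose product is a phosphatase that binds YAP and holds it in the cytoplasm, had 102, 104 and 106 CPM with compound, against 112, 107 and 139 CPM with vehicle. The groups did not overlap, and vehicle library 3 was the highest. The log2 fold change was -0.20 ± 0.09 with all 6 libraries (edgeR adjusted p = 0.311) and -0.077 without vehicle library 3. It was -0.27 without vehicle library 2 (edgeR adjusted p = 0.0661), and the log2 ratio of compound library 1 to vehicle library 3 was -0.44. The AMPK-related kinase genes NUAK1 and NUAK2, of which NUAK2 is known to restrain LATS signalling, were at -0.15 ± 0.07 and -0.16 ± 0.19 (edgeR adjusted p = 0.389 and 0.736). Without vehicle library 2, NUAK1 passed as lower (-0.22, adjusted p = 0.0474).

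Beside TUFT1, the intracellular group held GADD45A, a stress-induced growth arrest gene, which had the second smallest p of the set. It had 39.4, 40.4 and 40.6 CPM with compound, against 34.5, 35.5 and 29.5 CPM with vehicle. Every compound library was above every vehicle library, with vehicle library 3 the lowest (0.28 ± 0.08, edgeR adjusted p = 0.117). GADD45A passed without vehicle library 2 (0.33, adjusted p = 0.0193) and had a log2 ratio of 0.42 within the pair of compound library 1 and vehicle library 3. The forkhead factor gene FOXF2, the Hedgehog effector gene GLI2 and the RNA-binding protein gene RBMS3 were at 0.024 ± 0.10, 0.17 ± 0.12 and -0.076 ± 0.16.

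Groups that did not overlap were counted for 4 tested genes as higher (TUFT1, GADD45A, F3 and SLIT2) and 2 as lower (ARHGEF17 and PTPN14), where 11.3% and 9.84% of all tested genes did not overlap in those directions. Leaving out vehicle library 3 changed more calls among these genes than leaving out any other single library. Without it 6 of the 30 genes passed as higher (TGFB2, THBS1, IGFBP3, ASAP1, ARHGAP29 and TUFT1) and FJX1 as lower, against a background of 7.36% higher and 4.0% lower in that fit. With the pair term, that is between compound library 1 and vehicle library 3, 14 of the 30 log2 fold changes had the opposite sign to that from the fit without it. Without vehicle library 2 GADD45A and TUFT1 passed as higher and NUAK1 as lower (background 1.6% and 0.999%), and with the replicate block THBS1 and TUFT1 passed as higher (background 1.49%). For the library pairs that hold 1 treatment only, pair and treatment cannot be told apart.

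**Figure D4:**
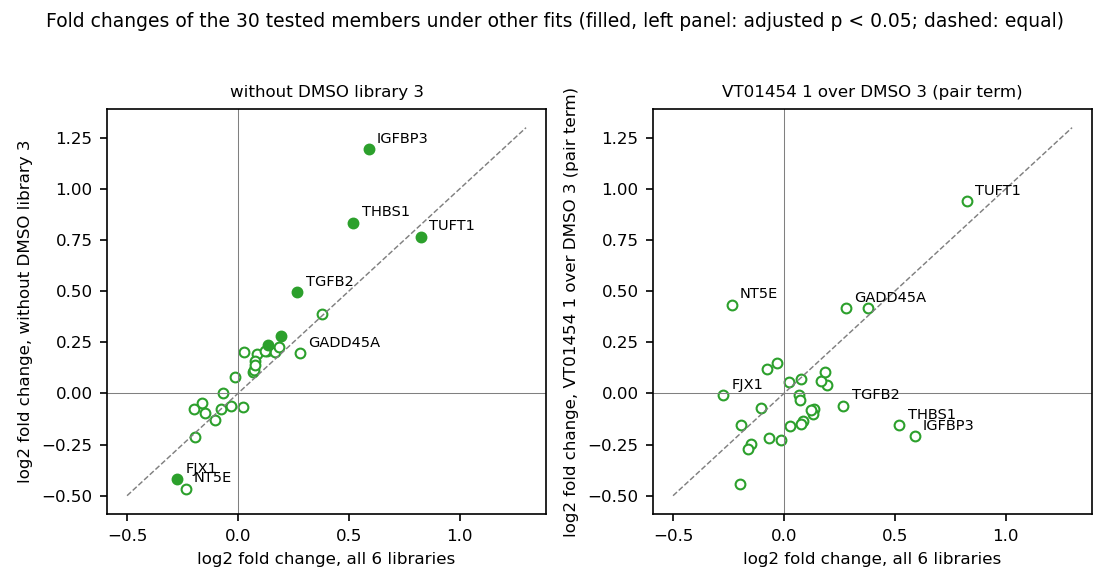
Log2 fold change of the 30 tested genes with all 6 libraries (x axes) against that without vehicle library 3 (left, filled points passed at an adjusted p below 0.05) and that of compound library 1 over vehicle library 3 from the fit with a term for library pairs (right, no calls shown); the dashed line marks equal values. IGFBP3 and THBS1 lie above the line on the left, at 1.196 and 0.84, and below 0 on the right, whereas TUFT1 stays near the line in both panels.

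Other YAP/TAZ and Hippo genes listed for context gave 1 fall in each list and no rise, where 0.616% of all tested genes passed as lower. Of 6 further reported targets, AJUBA, a LIM protein gene whose product binds LATS kinases, fell 1.46-fold to 54.1 ± 1.90 CPM with compound, against 78.7 ± 3.46 CPM with vehicle (edgeR adjusted p = 4.63e-04), and the other 5 did not pass. Of 22 Hippo components, YAP/TAZ and TEAD genes, TAOK2, an upstream kinase gene, fell 1.31-fold (edgeR adjusted p = 0.0102) and 21 did not pass; TAOK2 did not pass when compound library 1, 2 or 3 or vehicle library 1 was left out. Their median log2 fold change was 0.089, beside 0.074 for the 30 targets.

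Immediate early genes, many of them encoding AP-1 subunits that share enhancers with TEAD factors, rose in 17 of 21 cases with none falling. Of all tested genes 1.27% passed as higher. The median log2 fold change of the list was 0.90. Those with the smallest p were EGR3 (4.83 ± 0.19), JUN (0.92 ± 0.06), IER2 (1.09 ± 0.07) and KLF6 (0.90 ± 0.06), the values being log2 fold changes with SE and edgeR adjusted p up to 3.01e-06. TUFT1, at 0.82, lay within the range of that list (0.079 to 4.83), a wide range that includes genes that did not pass. The AP-1 gene JUN, for example, had 777, 758 and 750 CPM with compound, against 406, 422 and 376 CPM with vehicle. Its groups did not overlap, as for TUFT1 and for 11.3% of all tested genes in that direction. A link between TUFT1 and these genes was not tested.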

How the data were processed

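The authors deposited whole-number read counts, unnormalized, in 1 table for each library. HISAT2 2.2.1 and HTSeq 0.9.1 with the build hg38 appear in the submitters' processing notes; strand setting, gene annotation and handling of multi-mapping reads were not given in the sources used here. Symbols were matched to 60357 of 60676 gene IDs, and coordinates and exonic lengths come from GENCODE 29 on the same build. Exons of 11 of the 32 genes share bases with another gene, and 9 of them with a gene on the opposite strand, so their counts are uncertain.

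Genes were kept by filterByExpr and tested in edgeR 4.0.16 (R 4.3.3) with TMM factors and the robust quasi-likelihood F-test, two-sided, compound against vehicle, over all 15577 kept genes. P-values were adjusted by the Benjamini-Hochberg method, and an adjusted p below 0.05 was called a change. Standard errors were derived from the log2 fold change and its F statistic, and 95% intervals use the test's degrees of freedom. CPM values are counts over TMM-scaled library sizes. The pipeline was run on simulated counts drawn independently for each library, with no library pairs, so that run does not speak to such pairs. The 95% intervals include the spread between libraries. A floor of 3 counts was 0.104 to 0.157 CPM on unscaled totals and covers counting error only.

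The 32 genes, the context lists, the tests and the named genes were chosen with earlier results of these data known. All 32 genes and the 5 classical targets are named, with up to 4 genes of each other list by smallest p among those that passed; markers of cell types were named whatever their p, to describe the samples; 1 further gene is not reported here. Alternatives were DESeq2 1.42.0, RLE size factors, no count filter, a mean of at least 1 CPM, a replicate block, an adjusted p below 0.01 and leaving out each library; a term for library pairs was added after the data were seen. Promoters are RefSeq sequences on GRCh38.p14.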

Additional observations from a re-analysis of the deposited data

How the results depend on the processing

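TUFT1 passed as higher in every alternative for which calls are given, including an adjusted p below 0.01. The pair term compares 1 library with 1, the lone libraries being assumed to vary as the other pairs do. Its estimates are therefore given with no call. Without a count filter 2 of the 32 genes were higher (GADD45A beside it) and 1 lower (FJX1), and with the replicate block 2 were higher. Leaving out 1 library gave 1 to 6 higher and 0 or 1 lower. Over all tested genes, those leave-outs gave 73 to 1170 higher and 20 to 636 lower; DESeq2 gave 298 higher, no count filter 508 higher and 205 lower, an adjusted p below 0.01 94 and 31, and the pair term 40 and 10.

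Calls in the context lists also moved with the setting. Hippo genes were 1 higher and 2 lower in DESeq2, 2 and 2 without a count filter and 0 lower at an adjusted p below 0.01, and leaving out 1 library gave 0 to 7 higher and 0 to 2 lower. Further targets had 0 or 1 higher in those leave-outs, and the HEK293 markers 0 to 2 higher, with 1 higher without a count filter. The highest of these leave-out counts came without vehicle library 3, where 7.36% of all tested genes passed as higher and 4.0% as lower. Over all genes, DESeq2 gave 298 higher and 121 lower, and no count filter 508 and 205, so calls rose in general in these settings.

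Of the 30 tested genes 12 kept the sign of their log2 fold change in every alternative. With the pair term the sign changed for TGFB2 (-0.059), EDN1 (0.15), THBS1 (-0.15), IGFBP3 (-0.21), CCDC80 (-0.14), FSTL1 (-0.032), AXL (-0.16), NT5E (0.43), CAV1 (-0.0077), LHFPL2 (-0.081), DOCK5 (-0.15), ARHGAP29 (-0.074), DLC1 (-0.10) and RBMS3 (0.12). It changed when 1 library was left out for EDN1 (-0.27 to 0.30), FGF2 (-0.061 to 0.082), CCDC80 (-0.028 to 0.19), CRIM1 (-0.12 to 0.0036), AXL (-0.068 to 0.20), MYOF (-0.0065 to 0.14), DOCK5 (-0.074 to 0.16), FOXF2 (-0.068 to 0.12) and RBMS3 (-0.19 to 0.041). None of the sign changes with 1 library left out passed the test, and the pair-term values carry no call. The cause was not tested. Same-numbered libraries did not deviate together (correlations of -0.07, 0.0276 and -0.0139 for numbers 1, 2 and 3), so the replicate block pairs a number only; it gave 339 changed genes in all, against 294. Depth limits FGF1, CAVIN2, EDN1 and NT5E, which had few counts.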
